A study of Homo sapiens with 8 samples.

Results

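The genes described here are 58 genes of cell division, DNA replication and DNA repair, chosen by name, in cervical carcinoma cells profiled for N4-acetylcytidine (ac4C) in RNA. They are read in 2 deposited peak lists, which together hold peaks of 9046 gene identifiers. Of the 58 genes, 31 (53.4%, 95% exact binomial interval 39.9 to 66.7%) had a peak in either list, against 35.6% of RefSeq protein-coding genes, and 27 had none. ac4C is a cytidine modification that the acetyltransferase NAT10 writes into RNA. Antibody-captured RNA and input mRNA were sequenced from SiHa cells in which NAT10 was knocked out (labelled KONAT10SiHa) and from SiHa cells, an established line derived from a squamous cervical carcinoma. Each population gave 2 immunoprecipitated and 2 input libraries, labelled as biological replicates, 8 in all. The sources used here do not give how the knockout was made or how many clones it stands for. Every comparison sets 1 peak list of the knockout cells beside 1 of the SiHa cells, so there is no replicate value, no spread and no test between the populations. The depth is unknown.

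A cell divides only after it has copied its DNA once. Cyclin-dependent kinases with their cyclins drive entry into the replication phase and into mitosis, the MCM helicase and the replication fork copy the genome, and the spindle checkpoint holds chromosome separation until every chromosome is attached. Checkpoint kinases and repair proteins act when DNA is damaged. Many of these genes are transcribed in waves during the cycle, and tumour lines in culture use the whole programme. SiHa cells carry integrated human papillomavirus, whose oncoproteins act on the RB and p53 pathways upstream of it.

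The knockout list held 4557 peaks in 3726 genes and the SiHa list 12924 peaks in 7291 genes, or 2.84 SiHa peaks for each knockout peak. NAT10 itself had 0 knockout peaks and 1 SiHa peak. A peak reports captured RNA above input as the authors called it, and neither list gives an expression level, so a gene without a peak is not thereby shown to lack ac4C or transcript. The knockout list carries a fold enrichment and a p for each peak and the SiHa list a p alone, all of them the authors' own values. Of the knockout peaks, 46.7% had a fold that was a whole multiple of 2.56, with the same p at the same multiple (within rounding plus 0.2% for the fold, and within 3% plus 0.03 for log10 p). These are called the repeated series below, and their folds were higher than the others (median 20.5 against 7.69). In the SiHa list single p-values recurred in a similar way, and 1081 SiHa peaks shared a p of 0.027. Where peaks of genes on opposite strands overlapped, 72 of 116 pairs in the knockout list and 226 of 432 pairs in the SiHa list had the same p. The other pairs had different p-values. Whether peaks that share a place and a p come from the same reads was not tested. The epithelial keratin genes KRT8 and KRT19 had peaks in both lists, and EPCAM and KRT5 in SiHa alone. KRT18 had knockout peaks alone, and CDH1 had a peak in neither. Of 5 genes that mark other cells, 4 had a knockout peak (the red cell gene HBB, the liver gene ALB, the leukocyte gene PTPRC and the endothelial gene PECAM1) and 2 had a SiHa peak (HBB and ALB). COL1A1 of fibroblasts had none. The part of such RNA in the results below was not tested.

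The 58 genes were spread nearly evenly over the 2 lists. Peaks of the knockout cells lay in 18 genes (31.0%, 19.5 to 44.5%), and peaks of the SiHa cells lay in 19 (32.8%, 21.0 to 46.3%). Over all RefSeq protein-coding genes the same counts gave 14.9% for the knockout list and 29.2% for the SiHa list. A knockout peak alone was found in 12 genes (20.7%, against 6.37% of protein-coding genes), peaks in both lists in 6 (10.3%, against 8.53%), and a SiHa peak alone in 13 (22.4%, against 20.7%). Whether a gene is transcribed in SiHa cells bears on these shares and is not in the lists. Of the 18 genes with a knockout peak, 12 had no SiHa peak (66.7%, 41.0 to 86.7%), against 47.1% of all genes with a knockout peak and 42.7% of the named protein-coding ones. Of the 19 genes with a SiHa peak, 13 had no knockout peak (68.4%, 43.4 to 87.4%), against 73.0% of all genes with a SiHa peak and 70.8% of the named protein-coding ones. Both intervals cover counting error only, and both include the shares over all genes. Among peaks with a p of at most 1e-08, the knockout list held 8 of the 58 genes and the SiHa list 10, and MKI67 alone was in both. Over all genes, 1469 of 3726 in the knockout list and 3952 of 7291 in the SiHa list had such a peak.

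**Figure D1:**
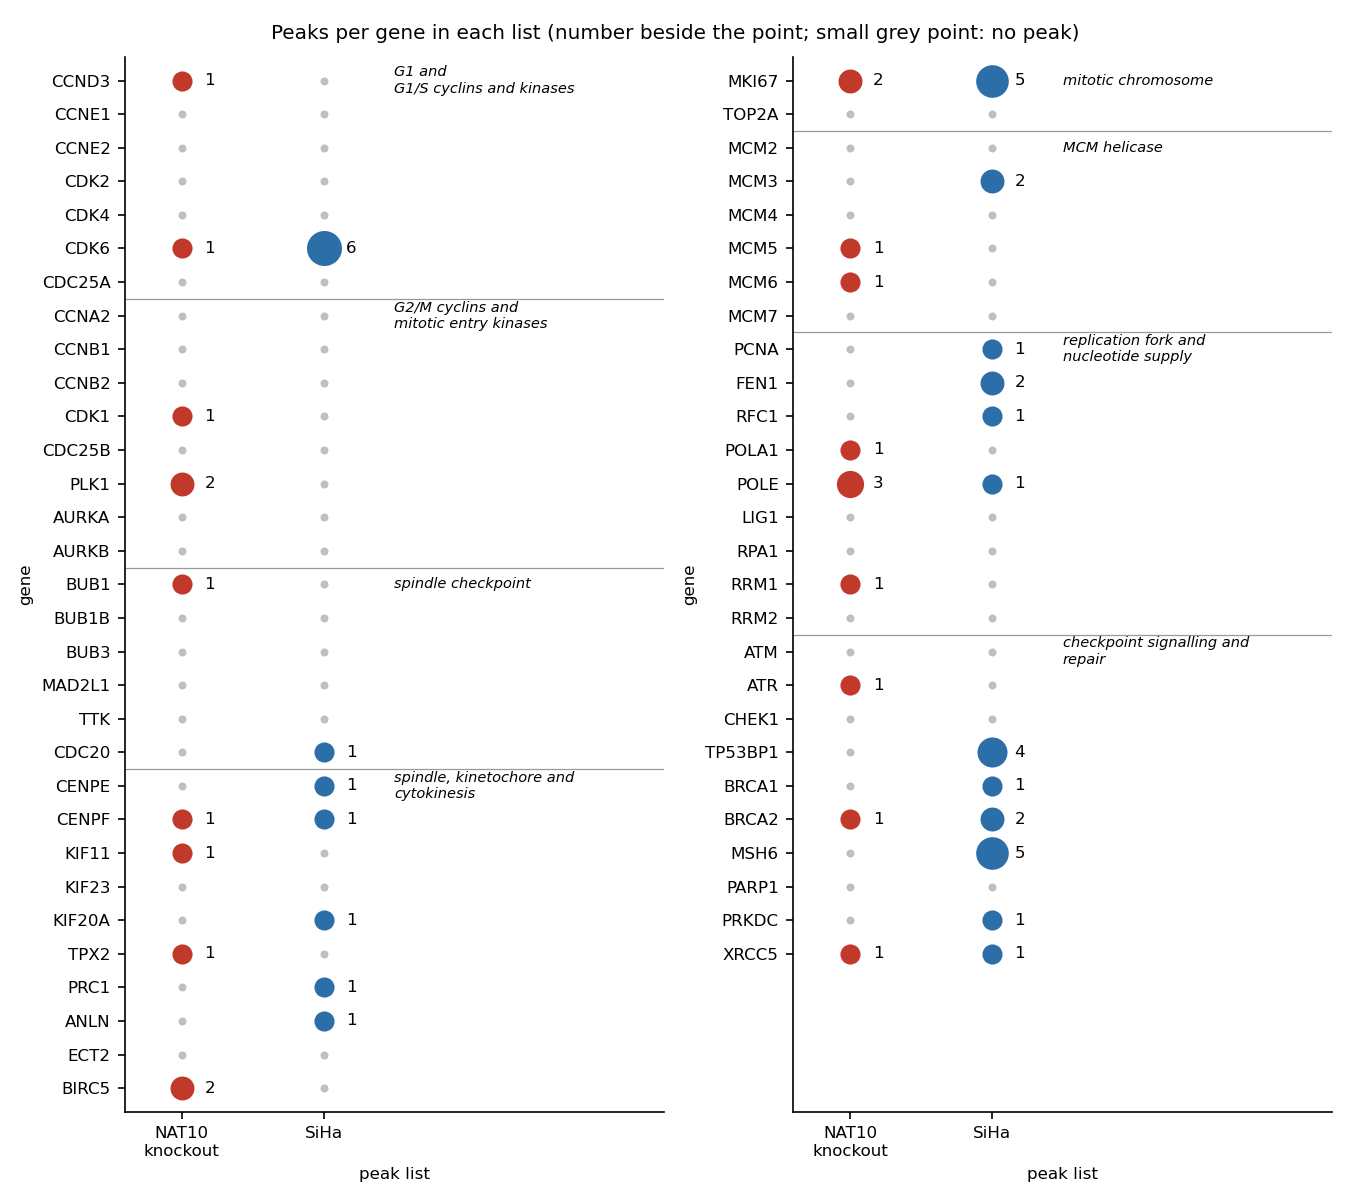
Number of peaks of each of the 58 genes in the NAT10 knockout list (red, left column) and the SiHa list (blue, right column), grouped by role, with the number beside each point and a small grey point where no peak was listed. Peaks lay in 18 genes of the knockout list and in 19 genes of the SiHa list, and 6 genes had both.

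**Figure D2:**
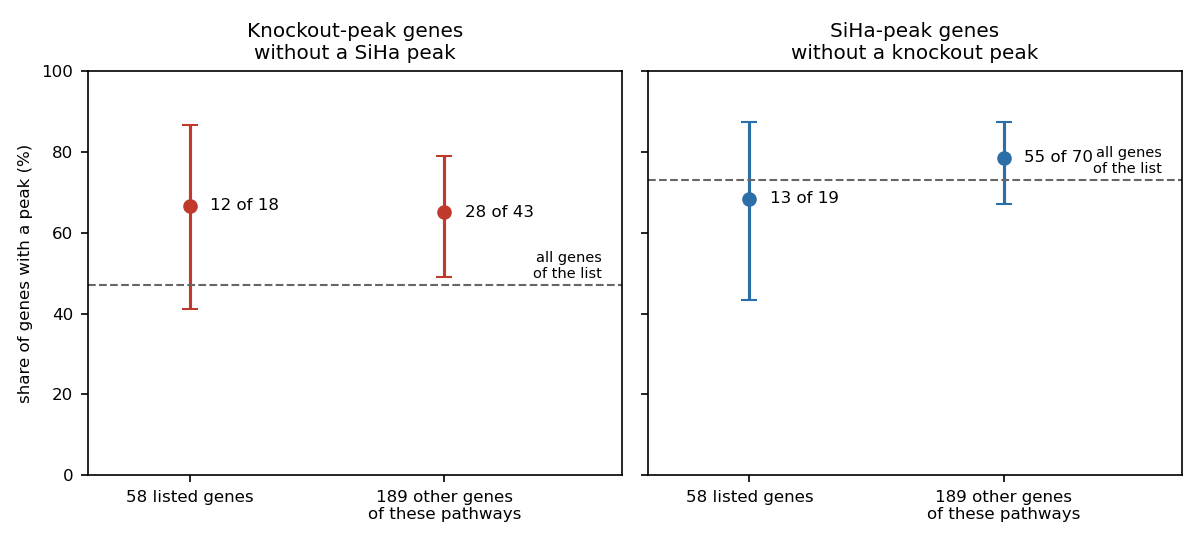
Share of genes with a peak in only 1 of the lists, for the 58 genes and for 189 other genes of the same pathways, with 95% exact binomial intervals that cover counting error. The dashed line is the share over all genes of the list: 47.1% for knockout-peak genes without a SiHa peak (left) and 73.0% for SiHa-peak genes without a knockout peak (right). The shares over named protein-coding genes, not drawn, were 42.7% and 70.8%.

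The counts of peaks in the 2 lists varied with role, a difference that could not be tested. Genes of mitosis, 26 of the 58, had 11 knockout and 11 SiHa peaks, and the 15 replication genes had 7 knockout and 7 SiHa peaks. That is 1.0 SiHa peak for each knockout peak in either group, where the whole lists stood at 2.84. The 10 checkpoint and repair genes had 3 knockout peaks and 14 SiHa peaks, a ratio of 4.67, and 9 of the 14 lay in MSH6 and TP53BP1. With only identifiers that touch 1 gene span, which leaves out MSH6 and BRCA1, they had 3 knockout and 8 SiHa peaks, a ratio of 2.67 that lies below the 2.84 of the lists. Among peaks with a p of at most 1e-08, the replication genes had 1 knockout and 5 SiHa peaks, a ratio of 5.0 against 3.41 for all such peaks, and the mitotic genes 4 knockout and 5 SiHa peaks, a ratio of 1.25. The 7 genes of the G1 phase had 2 knockout and 6 SiHa peaks, and all 6 SiHa peaks lay in CDK6. Over the 58 genes the ratio was 1.65, from 23 knockout and 38 SiHa peaks. These ratios have no replicate check, and several peaks of a gene share its transcript.

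Of the G1 genes, CDK6 and CCND3 had peaks. CDK6 encodes the kinase that pairs with D cyclins, and it spans 232 kb on chromosome 7 (GRCh38, 92604921 to 92836573, minus strand). Its single knockout peak covered 181 bases at 92605131 to 92605311, only 210 bases from the 3′ end of the gene, with a fold of 35.9 and a p of 9.8e-09. That fold was on the repeated series, and 54 knockout peaks shared it at this p. Its 6 SiHa peaks lay elsewhere, 4 of them 3057 to 9172 bases from the 3′ end and 2 of them about 3 kb from the 5′ end, at 2961 and 3170 bases. All 6 were weak, and each had a p that recurs in the list. The p was 0.027 in 3 of them and 0.0066 or 0.0016 in the others. These values were shared by 1081, 974 and 671 SiHa peaks. CCND3, which encodes cyclin D3, had 1 knockout peak of 150 bases, 1314 bases from its 3′ end, and none in SiHa. Its fold of 12.8 was on the repeated series, with a p of 0.0028 that 205 knockout peaks shared at that fold, and its false discovery rate was above 0.05. No peak was assigned to CCNE1, CCNE2, CDK2, CDK4 or CDC25A, which encode the E cyclins, the kinases CDK2 and CDK4 and the phosphatase that activates CDK2. Within the span of CDK4 the SiHa list held a peak at chromosome 12, 57749044 to 57749224, under an identifier of the opposite strand that position names TSPAN31, with a p of 0.027.

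Of the 8 genes of mitotic entry, PLK1 and CDK1 had peaks, in the knockout list alone. PLK1, the polo-like kinase that drives mitotic entry and spindle assembly, had 2 knockout peaks and no SiHa peak. Both lay near its 5′ end on chromosome 16, 353 and 832 bases into a span of 11.5 kb. The second, of 181 bases at 23679721 to 23679901, had a fold of 53.8 and a p of 2.5e-49, rank 223 of the 4557 knockout peaks. The first had a fold of 5.64. CDK1, the kinase of mitosis, had 1 knockout peak in 2 blocks of 127 and 53 bases, 923 bases from the 3′ end, with a fold of 3.2 and a p of 0.00019. The cyclins CCNA2, CCNB1 and CCNB2, the Aurora kinases AURKA and AURKB and the phosphatase CDC25B had a peak in neither list. The partner subunits of CDK1 were thus without a peak while the kinase transcript had one, which says nothing of their expression.

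In the spindle checkpoint, BUB1 had a knockout peak and CDC20 a SiHa peak. BUB1 encodes a kinetochore kinase, and its peak joined 3 blocks of 25, 88 and 67 bases over 5 kb of chromosome 2, between 110650760 and 110655805. Its fold of 20.5 was on the repeated series, with a p of 4.7e-05. CDC20, the activator of the anaphase-promoting complex on which the checkpoint acts, had 1 SiHa peak of 151 bases, 758 bases from its 5′ end, with a p of 6.8e-07. BUB1B, BUB3, MAD2L1 and TTK, which encode the other checkpoint proteins of the list, had no peak.

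Of the genes of the spindle, the kinetochore and cytokinesis, 8 of 10 had a peak in either list, against 35.6% of protein-coding genes. Knockout peaks alone were found in KIF11, TPX2 and BIRC5. KIF11, the motor that pushes spindle poles apart, had a peak of 181 bases in 2 blocks with a fold of 2.48 and a p of 5e-07. TPX2, which activates Aurora A on the spindle, had a peak of 180 bases in 2 blocks, between 31777599 and 31778952 on chromosome 20, with a fold of 7.48 and a p of 5e-14. BIRC5, which encodes survivin of the chromosomal passenger complex, had 2 knockout peaks at opposite ends of its transcript. The peak at the 5′ end began 22 bases into the gene, at chromosome 17, 78214275 to 78214424, and had a fold of 14.5 and a p of 5.2e-09. The peak near the 3′ end had a fold of 6.41 and a p of 0.0079, which 46 knockout peaks shared, and did not reach a false discovery rate of 0.05.

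SiHa peaks alone were found in CENPE, KIF20A, PRC1 and ANLN. They encode a kinetochore motor, a motor of the central spindle, a protein that bundles midzone microtubules and the scaffold anillin of the cleavage furrow. Each had 1 peak, of 121 to 271 bases, with p-values of 1.9e-07 in CENPE, 1.3e-06 in KIF20A, 6.2e-06 in PRC1 and 2.2e-05 in ANLN. CENPE had the widest, in 2 blocks of 92 and 179 bases. By p they ranked between 5988 (CENPE) and 7576 (ANLN) of the 12924 SiHa peaks. The span of PRC1 also holds an antisense RNA gene. KIF23 and ECT2, both of cytokinesis, had no peak.

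CENPF, a large protein of the outer kinetochore, had 1 peak in each list at different places. The knockout peak covered 151 bases at chromosome 1, 214642250 to 214642400, with a fold of 5.98 and a p of 3.9e-08. The SiHa peak covered 241 bases at 214646599 to 214646839, with a p of 5e-58. The 2 peaks were 4198 bases apart.

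MKI67 was the 1 gene of the 58 in which peaks of the 2 lists overlapped. It encodes Ki-67, the proliferation antigen that coats mitotic chromosomes, and spans 29.8 kb on chromosome 10 (128096659 to 128126423, minus strand). Its 2 knockout peaks lay at 128109075 to 128109285 and at 128115493 to 128115643. The first of these had the smallest p of any knockout peak of the 58 genes, 7.9e-94 (rank 89 in the list), at a fold of only 3.07. The second had a fold of 2.56 and a p of 0.021. The 5 SiHa peaks ran from 128098308 to 128109165, and their p-values were 8.1e-05, 2e-53, 1.3e-18, 1.5e-09 and 1e-117 in the order of coordinates. The strongest of them, at 128108985 to 128109165, shared 91 bases with the first knockout peak, less than 50% of the 211 bases of the knockout peak, and no other peak of MKI67 was overlapped. The 4 remaining SiHa peaks lay towards the 3′ end of the gene, and the other knockout peak towards its 5′ end. TOP2A, the topoisomerase of mitotic chromosomes, had no peak.

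The MCM genes encode 6 subunits that form a single ring around DNA, and their peaks did not follow the complex. MCM5 and MCM6 had a knockout peak alone, and MCM3 had SiHa peaks alone. MCM2, MCM4 and MCM7 had neither. The knockout peak of MCM5 joined blocks of 21 and 130 bases with a fold of 4.7 and a p of 0.00023. That of MCM6 joined blocks of 33 and 117 bases with a fold of 5.13 and a p of 4.7e-09. The 2 SiHa peaks of MCM3 were stronger, with a p of 1.6e-70 for 360 bases at chromosome 6, 52264218 to 52264577, and of 1.3e-49 for 180 bases in 2 blocks. The wider of them ended 203 bases from the 3′ end.

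At the replication fork, FEN1 had the strongest peak of the 58 genes in the SiHa list and no knockout peak. FEN1 encodes the nuclease that trims the flaps of lagging-strand fragments. Its 2 SiHa peaks covered 1285 bases of a span of 4.33 kb on chromosome 11. One had 717 bases at 61795782 to 61796498 and a p listed at 0, as in 309 SiHa peaks, and the other had 568 bases at 61796558 to 61797125 and a p of 2.5e-46. PCNA, the sliding clamp that holds FEN1 and the polymerases on DNA, had 1 SiHa peak of 118 bases, 118 bases from its 3′ end, with a p of 4e-05. RFC1, the large subunit of the loader of that clamp, had 1 SiHa peak of 301 bases in 2 blocks with a p of 1.3e-12. Neither had a knockout peak.

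POLA1, the catalytic subunit of the polymerase that starts each fragment, had 1 knockout peak and no SiHa peak. This peak joined 3 blocks of 48, 117 and 16 bases in the first part of a span of 303 kb, with a fold of 25.6 on the repeated series and a p of 2.8e-06. RRM1, the large subunit of ribonucleotide reductase, had 1 knockout peak of 150 bases, 205 bases from the 3′ end, with a fold of 3.42 and a p of 1.6e-07. POLE, the leading-strand polymerase, had 3 knockout peaks and 1 SiHa peak. The folds of its knockout peaks were 1.45, 3.85 and 3.59, with p-values of 0.0016, 5.8e-05 and 0.0078. Its SiHa peak of 121 bases had a p of 0.003 and lay 688 bases from the nearest knockout peak, that with the fold of 1.45. The ligase LIG1, the single-strand binding protein RPA1 and the small reductase subunit RRM2 had no peak.

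Checkpoint and repair genes had a peak in either list in 7 of 10 cases, against 35.6% of protein-coding genes, with 3 genes in the knockout list and 6 in the SiHa list. MSH6, a protein of mismatch repair, had 5 SiHa peaks covering 2221 bases and no knockout peak. The strongest had a p of 1e-313 for 331 bases at chromosome 2, 47799232 to 47799562 (rank 317). A peak of 869 bases at 47800221 to 47801089, the widest of the 58 genes in either list, had a p of 1.6e-22. The peak nearest the 3′ end, at 47807855 to 47808244, had a p of 1e-103, and an identifier of the opposite strand that position names FBXO11 had a SiHa peak 1 base away with the same width and the same p. Which transcript gave that peak was not tested, and the 4 others of MSH6 did not share a place with another gene.

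TP53BP1, which encodes a protein that marks DNA breaks for end joining, had 4 SiHa peaks covering 1412 bases and no knockout peak. The widest had 630 bases at chromosome 15, 43455962 to 43456591, and a p of 1e-87. The others had p-values of 1e-54, 1.9e-07 and 0.0066. PRKDC, the catalytic subunit of the DNA-dependent protein kinase, had 1 SiHa peak of 181 bases in 2 blocks with a p of 7.9e-74 and none in the knockout. XRCC5 encodes Ku80, which loads that kinase on broken ends. Its knockout peak joined 4 blocks of 4, 91, 134 and 11 bases between 216137222 and 216148093 on chromosome 2, with a fold of 35.6 and a p of 6.3e-77. Its SiHa peak lay 57731 bases away, 348 bases from the 3′ end, with the recurring p of 0.027.

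BRCA1 and BRCA2 act in repair by recombination. BRCA1 had 1 SiHa peak of 3 blocks, of 55, 41 and 55 bases, with a p of 5e-14, and no knockout peak by its own identifier. A further identifier on the same strand, at the 5′ end of the RefSeq span of BRCA1, had overlapping peaks in both lists. Its knockout peak at chromosome 17, 43166153 to 43166362, had a fold of 20.9, and its SiHa peak at 43166153 to 43166332 had a p of 1e-17. The files give this identifier no name, and counting it as BRCA1 would move that gene to those with peaks in both lists. On the opposite strand, 2 further knockout peaks within the span, with folds of 15.4 and 37.6, belonged to an identifier that position names NBR2. BRCA2 had neighbouring peaks of the 2 lists, 119 bases apart on chromosome 13. The knockout peak, at 32332443 to 32332593, had a fold of 10.3 and a p of 0.00019, and the SiHa peak, at 32332713 to 32332862, had a p of 7.9e-11. That fold and p were shared by 48 knockout peaks, though off the repeated series, and the SiHa p by 84 SiHa peaks. A second SiHa peak lay 1858 bases from the 3′ end with a p of 0.0016.

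ATR, the checkpoint kinase that responds to stalled forks, had 1 knockout peak in 2 blocks of 121 and 60 bases, between 142496400 and 142497072 on chromosome 3. Its fold of 115 was the highest of the 58 genes and lay on the repeated series, and its p was 2.5e-28. ATM and CHEK1, which encode the kinase of double-strand breaks and the effector kinase of ATR, had no peak, nor did PARP1, the sensor of nicked DNA. A knockout peak with a fold of 69.2 lay within the span of CHEK1, at chromosome 11, 125672149 to 125672329, and belonged to an identifier of the opposite strand that position names ACRV1.

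Of the 23 knockout peaks, 1 was overlapped by a SiHa peak (4.35%, 0.11 to 21.9%), against 19.2% of all knockout peaks. Of the 38 SiHa peaks, 1 was overlapped by a knockout peak (2.63%, 0.0666 to 13.8%), against 6.76% of all SiHa peaks. In the other 5 genes with peaks in both lists, the nearest peaks were 119 bases apart in BRCA2, 688 in POLE, 2666 in CDK6, 4198 in CENPF and 57731 in XRCC5, measured along the genome with introns included. An overlapping pair was present in 1 of these 6 genes (16.7%, 0.421 to 64.1%), against 39.5% of all genes found in both. The interval covers counting error only and includes that share. In CDK6, POLE and XRCC5 every SiHa peak had a p above 0.0001, so in these 3 of the 6 genes the shared status rests on weak SiHa peaks. They were 3 of the 19 genes with a SiHa peak (15.8%). In 189 other genes of these pathways, this held for 14 of 70 genes with a SiHa peak (20.0%). The share over all genes was not computed.

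**Figure D3:**
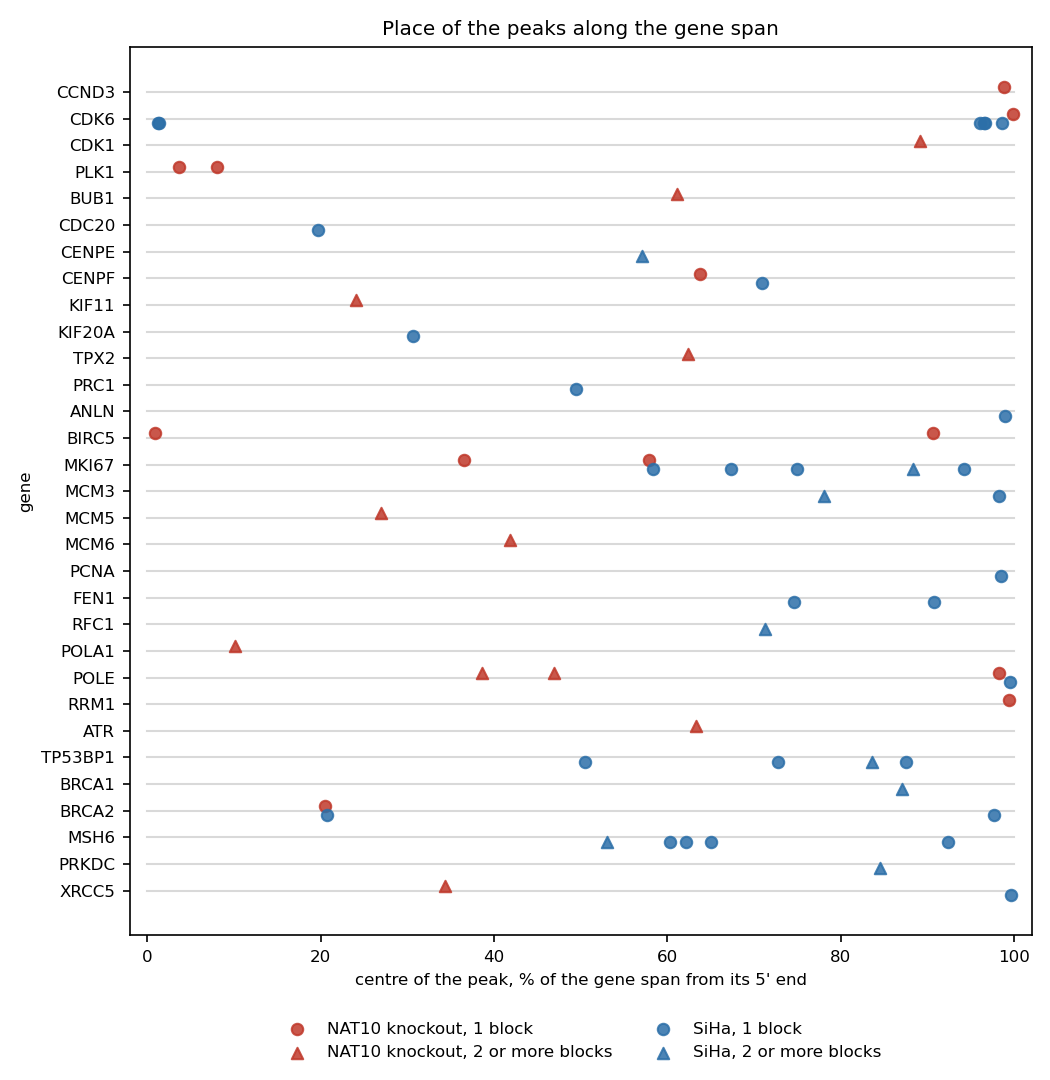
Centre of every peak of the 31 genes as a percentage of the genomic gene span from its 5′ end, introns included, for the NAT10 knockout list (red) and the SiHa list (blue), with triangles for peaks of 2 or more blocks. Points of the 2 lists nearly coincide in MKI67 and BRCA2, and the blue points crowd to the right, with a median of 46.9% for knockout peaks and 76.5% for SiHa peaks.

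The peaks of the 2 lists also differed in place and form. The median centre of the knockout peaks lay at 46.9% of the gene span from the 5′ end, and that of the SiHa peaks at 76.5%. Over all named genes these medians were 76.0% for knockout peaks and 82.9% for SiHa peaks. In 189 other genes of these pathways, described below, they were 54.5% and 79.8%. In the last 10% of the span lay 5 of 23 knockout peaks (21.7%, against 31.8% over named genes) and 13 of 38 SiHa peaks (34.2%, against 39.8%). In 2 or more blocks, with gaps between them, were 11 of 23 knockout peaks (47.8%, against 31.3% of all knockout peaks) and 8 of 38 SiHa peaks (21.1%, against 25.2% of all SiHa peaks). The knockout peaks had 120 to 240 bases, with a median of 180, and the SiHa peaks 118 to 869 bases, with a median of 181. Peaks over 300 bases numbered 0 of 23 in the knockout list, against 1.38% of all knockout peaks, and 11 of 38 in the SiHa list, against 21.1% of all SiHa peaks.

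**Figure D4:**
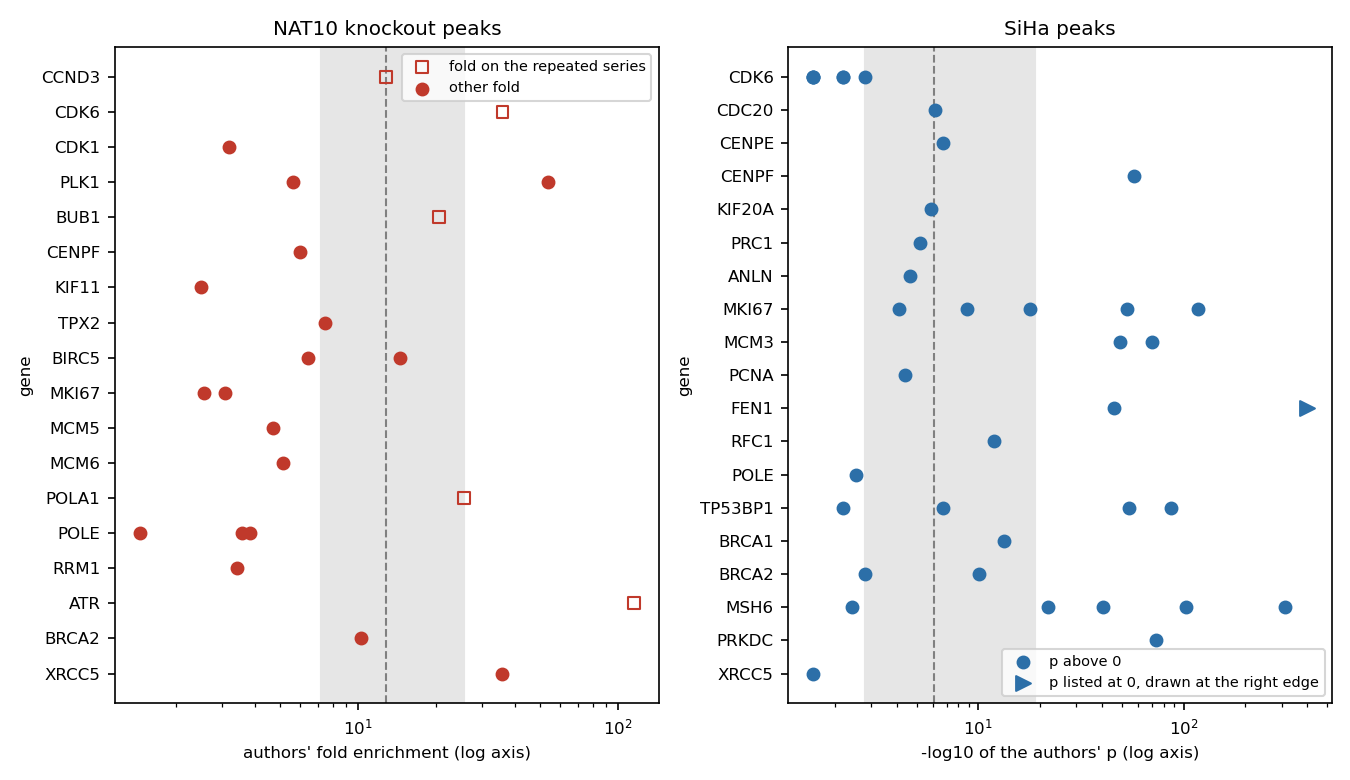
Strength of every peak by gene on log axes: the authors' fold enrichment in the NAT10 knockout list (left, open squares on the repeated series) and −log10 of the authors' p in the SiHa list (right). The dashed line is the median of the whole list and the grey band runs from its lower to its upper quartile. The 2 scales cannot be compared, most knockout folds lie left of the median of 12.8, and the FEN1 peak with p listed at 0 is drawn at the right edge.

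Within the knockout list the folds of these genes were mostly low. They ran from 1.45 in POLE to 115 in ATR, with a median of 5.98 against 12.8 over the list, and 15 of 23 lay below the list's median. Peaks on the repeated series, whose folds are higher, numbered 5 of 23 here (21.7%, against 46.7%). Off the series the median was 4.92 against 7.69 over the list, and 14 of 18 peaks lay below that value. By p these knockout peaks stood near the list, with a median −log10 p of 5.55 against 5.46. A false discovery rate of at most 0.05 was reached by 19 of 23 peaks (82.6%, against 75.0% of all knockout peaks). In the SiHa list the median −log10 p was 7.77 against 6.05 over the list, and 22 of 38 peaks lay above the list's median. A recurring p of 0.027, 0.0066 or 0.0016 was found in 9 of 38 peaks, in CDK6, TP53BP1, BRCA2 and XRCC5. Of the 12924 SiHa peaks, 1081, 974 and 671 had these values. A SiHa p of at most 1e-40 was found in 7 genes: CENPF, MKI67, MCM3, FEN1, TP53BP1, MSH6 and PRKDC. This limit was set after values were seen, and the share of all SiHa genes that reach it was not computed. Whether 7 of 19 genes is many therefore cannot be judged. Over all SiHa peaks the 75th percentile of −log10 p was 18.9 and the 95th was 148, so the limit lies between them. Of the 7 genes, CENPF and MKI67 also had a knockout peak.

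The other genes of these pathways, 189 that are not among the 58, were counted in the same way. Peaks lay in 43 of them in the knockout list (22.8%) and in 70 in the SiHa list (37.0%), with 28 in the knockout alone, 15 in both and 55 in SiHa alone. Of those with a knockout peak, 65.1% (49.1 to 79.0%) had no SiHa peak, against 47.1% over all genes and 42.7% of the named protein-coding ones. Of those with a SiHa peak, 78.6% (67.1 to 87.5%) had no knockout peak, against 73.0% over all genes and 70.8% of the named protein-coding ones. An overlapping pair was present in 7 of the 15 genes with both (46.7%, 21.3 to 73.4%), against 39.5% over all genes. Of the 49 knockout peaks of the 189 genes, 8 were overlapped by a SiHa peak (16.3%, against 19.2% of all knockout peaks). In the 58 genes 1 of 23 knockout peaks was overlapped (4.35%, 0.11 to 21.9%). That interval includes both shares, so these counts do not set the 58 genes apart. Genes of mitosis, cohesin and condensin had 16 knockout and 16 SiHa peaks, a ratio of 1.0. Repair genes had 14 knockout and 52 SiHa peaks, a ratio of 3.71, and replication genes 11 knockout and 18 SiHa peaks, a ratio of 1.64. Cyclins, cell cycle inhibitors and E2F genes had 8 knockout and 30 SiHa peaks. On the repeated series lay 17 of the 49 knockout peaks of the 189 genes (34.7%, against 46.7% of all knockout peaks).

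Among those other mitotic genes, the kinase NEK2, the condensin subunit SMC4, the passenger subunit INCENP and the spindle pole protein NUMA1 had knockout peaks alone. Their highest folds were 12.0 in NEK2, 11.1 in SMC4, 10.3 in INCENP and 15.4 in NUMA1. The smallest p was 2.8e-07 in NEK2, 1e-06 in SMC4, 0.0013 in INCENP and 0.00072 in NUMA1. An order by p would differ: SMC1A, also with a knockout peak alone, had a fold of 1.78 and a p of 1.6e-52. SPC24, ANAPC1, MAD2L1BP and CDCA8 had SiHa peaks alone, with p-values from 1.3e-81 in SPC24 to 2e-29 in CDCA8. CENPB, CDCA2, STAG2 and FZR1 had both. Of the replication genes, CDC45, GINS2, PRIM1 and RFC5 had a knockout peak alone, with folds of 28.2, 25.6, 20.1 and 10.3. Their p-values were 6.9e-07, 2.8e-06, 1.6e-24 and 0.01. The fold and p of GINS2 were those of the POLA1 peak on the repeated series. Those of NUMA1 recurred in E2F6 and POLH, and those of RFC5 in ORC6. POLE3 and GINS4 led those with SiHa peaks alone, with a p listed at 0 in POLE3 and of 3.2e-14 in GINS4, followed by MCM8 and TK1. CLSPN, DBF4 and ORC6 had both.

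In repair, UNG, which removes uracil from DNA, had a peak in the knockout alone, at a fold of 35.9, as did ERCC2, BLM and FANCA at folds of 14.1, 7.69 and 5.98. The smallest p was 4e-24 in UNG, 3.5e-06 in ERCC2, 0.038 in BLM and 0.00042 in FANCA. ERCC1, PMS2, USP1 and MDC1 had SiHa peaks alone, with a p listed at 0 in ERCC1, of 1e-120 in PMS2, of 1e-113 in USP1 and of 2.5e-66 in MDC1. RNF168, TOP1, POLH and PALB2 had both, and in RNF168 and TOP1 a SiHa peak was overlapped by a knockout peak. Among the regulators, CCND1, which encodes cyclin D1, had 2 knockout and 8 SiHa peaks, and 2 of its SiHa peaks were overlapped. TFDP2, E2F2, LIN9 and RBL1, all of the E2F and RB network, had a peak in the knockout alone, at folds of 113, 43.6, 35.9 and 25.4. Their p-values were 1e-27, 1.3e-10, 9.8e-09 and 1.3e-57. The fold and p of LIN9 were those of the CDK6 knockout peak on the repeated series. Those of UNG equalled the highest fold and the smallest p of CCND1 in the knockout list. E2F3, CDKN1B, TFDP1 and CKS1B had SiHa peaks alone, with p-values of 1e-149 in E2F3, 4e-42 in CDKN1B, 1e-36 in TFDP1 and 7.9e-15 in CKS1B.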

How the data were processed

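Immunoprecipitated and input mRNA libraries were made with a stranded kit, per the labels' protocols, and FastQC 0.11.7 and GRCh38 (hg38) stand in the submitters' processing notes. Aligner, peak caller, annotation and the handling of replicates were not given in the sources used here. In both lists the column the authors headed score holds a p-value per peak. The knockout list adds, per the file headers, a fold (ratio to an unstated denominator) and log10 values of the p and of the false discovery rate. The list named SiHa with an added K was read as the knockout list, which no label states in words.

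Left out were 1 repeated SiHa line and the peaks on unplaced scaffolds, 2 in the knockout list and 3 in the SiHa list. The files give Ensembl identifiers only, and the RefSeq table (GRCh38.p14) pairs none with a symbol, so names were given by position. An identifier took the gene whose span held at least 90% of its peak bases on its strand, protein-coding genes first. The strand was known for 47 of the 58 genes. Of 9046 identifiers 7710 (85.2%) were named, 515 had no such span, 327 had several and 494 contested a gene. The rule was tried on simulated peaks placed inside 2000 protein-coding genes of known strand, and 100% of the names it gave were right. That simulation held no noncoding identifiers and no genes of unknown strand, so it does not show how the rule does on them. An overlap needed at least 1 base common to blocks of the same strand. Analyses used Python 3.11.15 and pandas 2.3.3, and intervals are exact binomial (Clopper-Pearson). The members, gene lists and alternatives were chosen with earlier results of these data known, and the limits of 300 bases, of p 1e-40 and 0.0001 and of 10% of a span, like the merging of roles into broad groups, after values were seen. The text names all 58 genes and, for the other genes, up to 4 for each role and class, strongest first. Strongest meant the smallest SiHa p, or the highest fold where a gene had knockout peaks alone, the repeated series included. No genome sequence was at hand, so exons and peak sequences were not analysed here.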

Additional observations from a re-analysis of the deposited data

How the results depend on the processing

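With peaks of a p of at most 1e-08 alone, the knockout list held 8 of the 58 genes, the SiHa list 10 and both 1 (MKI67). Over all genes this limit kept 1469 of 3726 in the knockout list and 3952 of 7291 in the SiHa list. The share of knockout-peak genes without a SiHa peak was then 87.5% (59.0% over all genes), and that of SiHa-peak genes without a knockout peak 90% (84.7% over all genes). With only the strongest SiHa peaks, equal in number to the knockout peaks, 9 of the 58 genes had a SiHa peak, 2 had both (CENPF and MKI67), and 88.9% of knockout-peak genes had no SiHa peak (69.1% over all genes). That setting kept 3339 of the 7291 genes of the SiHa list. Both settings use fewer peaks by construction. The 1 overlapped SiHa peak was 0 when 50% of both peaks had to be shared, and 2 when centres within 500 bases counted. Without the repeated series the knockout list held 13 of the 58 genes, without CCND3, CDK6, BUB1, POLA1 and ATR. Over all genes it then held 2098 of 3726. Counting peaks on either strand, an alternative chosen after seeing the data, added CHEK1 and BRCA1 to the knockout list and CDK4 to the SiHa list. In all, 31 of 41 recomputed values stayed within their limits (1.5 times for a count, the binomial interval for a share). Some of these could not move, because the setting left their list untouched. An example is the count of genes with a SiHa peak when only knockout peaks were filtered. The tally is therefore no measure of robustness. No paired analysis was possible because the peak lists carry no value per replicate, and for the same reason no replicate could be left out.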
